A study of Mus musculus with 24 samples.

Results

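This account covers 51 mouse genes of the cell cycle and of DNA replication, measured in 24 RNA-seq libraries of bone-marrow-derived macrophages. The members are the rows whose gene symbol equals 1 of 51 listed names on a numbered chromosome or X, among 47372 genes in the deposited tables. They fall into 8 roles: 7 G1 cyclins, E2F factors and the inhibitor p21, 12 genes of origin licensing and the replicative helicase, 5 of DNA polymerases, primase and clamp, 4 of nucleotide supply, 2 mitotic transcription factors, 6 S to M cyclins, Cdk1 and proliferation markers, 8 mitotic kinases and checkpoint or APC/C genes, and 7 of kinetochore, spindle and cytokinesis. Marrow came from 6 mice aged 8 to 12 weeks, 3 labelled DKO for the loss of both LXRα and LXRβ and 3 LXR-positive of the strain C57BL/6J. LXRs are nuclear receptors that sense oxidized cholesterol. Cells of each mouse, grown in medium conditioned by L929 cells, received 1 of 4 treatments. KLA (Kdo2-lipid A, which activates the lipopolysaccharide receptor TLR4) was given at 100 ng/ml and GW3965 (a synthetic LXR agonist) at 1 µM, both on day 5 for 17 hours. AcLDL (acetylated low-density lipoprotein, a source of cholesterol taken up by scavenger receptors) was given at 50 µg/ml, with no day or time given in the sources used here. The fourth treatment was vehicle, also on day 5 for 17 hours. Each of the 8 groups therefore held 3 libraries from 3 mice. Marrow cultures start from mixed progenitors that divide while they mature.

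Growth signals raise D-type cyclins, which with their kinases release E2F factors from the retinoblastoma protein, and E2F factors then switch on the genes of DNA replication. The helicase made of the Mcm proteins is loaded on origins by Cdc6 and Cdt1 and started by Cdc45 and the GINS subunits, and polymerases copy DNA on the sliding clamp PCNA. Later, Foxm1 and the B-Myb protein with the MuvB complex drive the genes of mitosis through a promoter element called CHR. In macrophages, the growth factor CSF1 maintains division, and signals through TLR4 are known to arrest it.

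Promoter windows are shown for 7 members on which the results below turn, because the early and the late genes carry different letters. They are RefSeq windows of GRCm38.p6 that run from 250 bases before to 50 bases after the start. A match was counted on both strands for the E2F letters TTTCCCGC, TTTGGCGC, TTTCGCGC or TTTGCCGC, for the CHR letters TTTGAA or TTCGAA, and for CCAAT. Capitals mark those matches on either strand. The first 3 windows belong to mitotic genes: Kif23 (chr9:61946750-61947049, minus strand), Cenpf (chr1:189688037-189688336, minus strand) and Ccnb2 (chr9:70421505-70421804, minus strand).
Kif23: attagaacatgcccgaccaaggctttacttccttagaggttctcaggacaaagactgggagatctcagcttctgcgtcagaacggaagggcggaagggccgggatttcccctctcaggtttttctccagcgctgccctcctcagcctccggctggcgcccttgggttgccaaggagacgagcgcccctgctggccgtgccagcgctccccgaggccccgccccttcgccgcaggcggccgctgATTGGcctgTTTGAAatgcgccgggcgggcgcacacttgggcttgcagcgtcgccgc
Cenpf: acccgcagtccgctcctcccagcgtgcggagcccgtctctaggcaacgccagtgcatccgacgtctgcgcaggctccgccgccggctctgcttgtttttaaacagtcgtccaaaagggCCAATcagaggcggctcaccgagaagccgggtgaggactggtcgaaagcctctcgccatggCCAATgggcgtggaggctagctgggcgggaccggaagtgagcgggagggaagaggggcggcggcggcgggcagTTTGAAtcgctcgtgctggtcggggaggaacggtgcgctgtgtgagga
Ccnb2: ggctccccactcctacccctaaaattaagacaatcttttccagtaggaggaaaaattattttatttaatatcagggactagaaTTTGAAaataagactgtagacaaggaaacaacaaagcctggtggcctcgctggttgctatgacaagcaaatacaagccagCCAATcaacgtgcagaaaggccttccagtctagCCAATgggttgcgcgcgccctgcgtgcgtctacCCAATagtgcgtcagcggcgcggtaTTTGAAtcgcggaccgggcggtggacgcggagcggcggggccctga
The fourth mitotic window is that of Cdc20 (chr4:118437294-118437593, minus strand).
Cdc20: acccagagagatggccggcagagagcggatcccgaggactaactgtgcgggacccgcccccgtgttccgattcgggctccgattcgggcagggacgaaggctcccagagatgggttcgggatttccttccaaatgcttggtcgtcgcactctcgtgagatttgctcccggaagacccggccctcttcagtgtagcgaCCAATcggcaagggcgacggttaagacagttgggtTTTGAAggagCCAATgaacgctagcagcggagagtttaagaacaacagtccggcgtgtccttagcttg
The other 3 belong to early genes: Mcm3 (chr1:20820263-20820562, minus strand), Mcm6 (chr1:128359656-128359955, minus strand) and E2f2 (chr4:136172024-136172323, plus strand).
Mcm3: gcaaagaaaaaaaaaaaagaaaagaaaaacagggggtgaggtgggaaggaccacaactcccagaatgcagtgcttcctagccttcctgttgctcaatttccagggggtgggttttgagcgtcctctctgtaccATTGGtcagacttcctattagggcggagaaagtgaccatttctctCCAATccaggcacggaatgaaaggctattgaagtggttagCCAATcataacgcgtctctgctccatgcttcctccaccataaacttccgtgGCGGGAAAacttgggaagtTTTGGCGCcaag
Mcm6: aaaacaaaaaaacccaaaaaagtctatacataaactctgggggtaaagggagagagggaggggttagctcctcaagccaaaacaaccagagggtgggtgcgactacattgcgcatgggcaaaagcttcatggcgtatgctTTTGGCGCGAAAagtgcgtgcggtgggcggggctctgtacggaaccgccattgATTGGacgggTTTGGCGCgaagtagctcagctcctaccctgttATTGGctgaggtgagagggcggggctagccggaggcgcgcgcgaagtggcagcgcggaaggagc
E2f2: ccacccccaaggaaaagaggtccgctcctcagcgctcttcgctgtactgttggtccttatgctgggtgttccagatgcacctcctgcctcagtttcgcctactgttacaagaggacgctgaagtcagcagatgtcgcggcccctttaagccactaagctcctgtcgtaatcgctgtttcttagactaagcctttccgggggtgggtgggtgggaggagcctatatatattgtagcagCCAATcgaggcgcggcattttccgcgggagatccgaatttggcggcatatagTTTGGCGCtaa
Windows were at hand for 40 of the 51 members. CHR letters stood in 13 of 18 mitotic windows (72.2%) and in 4 of 22 windows of G1 and replication members (18.2%), against 19.4% of all 27025 promoters. E2F letters stood in 1 of the 18 mitotic windows (5.56%) and in 9 of the 22 others (40.9%), against 2.32% of all promoters. Among the 9 licensing and helicase windows 6 held E2F letters. All 13 mitotic windows with CHR letters also held CCAAT, as did all 4 such windows of G1 and replication members. The pair was found in 7.7% of all promoters. CCAAT stood in 83.3% of mitotic windows and 63.6% of the others, against 37.9% of all promoters. Matches overlapped in 4 windows, in Mcm5 and Mcm6 (E2F letters), Ube2c (CCAAT) and Mcm7 (E2F letters and CCAAT), and each share above counts windows, not matches. A match is a description of letters, not a measured binding site.

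Values are the authors' normalized counts, that is, reads per gene divided by a size factor per library. Libraries held 9705391 to 27189081 reads in DKO and 6448579 to 17348717 reads in LXR-positive mice, so low genes are measured more precisely in DKO. Nr1h2, which encodes LXRβ, had 275 to 399 normalized counts in 12 DKO libraries and 438 to 821 in 12 LXR-positive libraries. Nr1h3, which encodes LXRα, had 123 to 751 in DKO and 114 to 1267 in LXR-positive libraries, and counts per gene do not show which exons were read. GW3965 called 1 gene in DKO, lower, and 43 in LXR-positive cells, 40 of them higher, in the test described below. Macrophage markers were detected throughout, with a summed level of 171690 to 478467 normalized counts over 12 entries. Reads from 11 members can be mixed with those of an expressed gene on the opposite strand, because no source says whether strand was used in counting. These are Ccnd1, Ccne2, E2f8, Mcm7, Cdc45, Gins2, Tk1, Ccna2, Cdc20, Kif20a and Nusap1, which share 53 (Cdc20) to 2758 (Gins2) exon bases.

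Mice of the same group differed widely in these genes, and this spread limits every comparison that follows. Mouse 3 gave the lowest value of its group for 50 of 51 members in DKO vehicle libraries and for 36 in LXR-positive vehicle libraries, and mouse 2 gave the highest for 28 and 50. Mki67, the proliferation antigen Ki-67, shows the pattern. It had 8393, 9126 and 3535 normalized counts in DKO vehicle libraries of mice 1, 2 and 3, and 2072, 7774 and 1184 in LXR-positive vehicle libraries. In both genotypes mouse 2 was highest and mouse 3 lowest, and the genotypes overlapped. The median ratio of the highest to the lowest mouse was 2.58 in DKO and 3.64 in LXR-positive vehicle libraries. It was 1.52 in DKO and 1.97 in LXR-positive KLA libraries. Mitotic genes spread most: kinetochore, spindle and cytokinesis genes differed by a median of 3.17-fold between DKO and 7.84-fold between LXR-positive vehicle mice, while helicase genes differed by 1.98-fold and 2.29-fold in the same groups. The median SD of all genes on the log2 scale was 0.222 in DKO and 0.252 in LXR-positive vehicle libraries, and that of the members was 0.757 and 0.985. A number marks the same mouse across treatments within a genotype, not across genotypes. Stromal markers moved with the mouse in DKO, with a sum over 8 genes of 2063, 3466 and 217 normalized counts in vehicle mice 1, 2 and 3, against 761, 167 and 77.0 in LXR-positive vehicle mice, and their part in the spread was not tested. All of this is bulk RNA, in which fewer dividing cells and less RNA per dividing cell cannot be told apart.

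**Figure D1:**
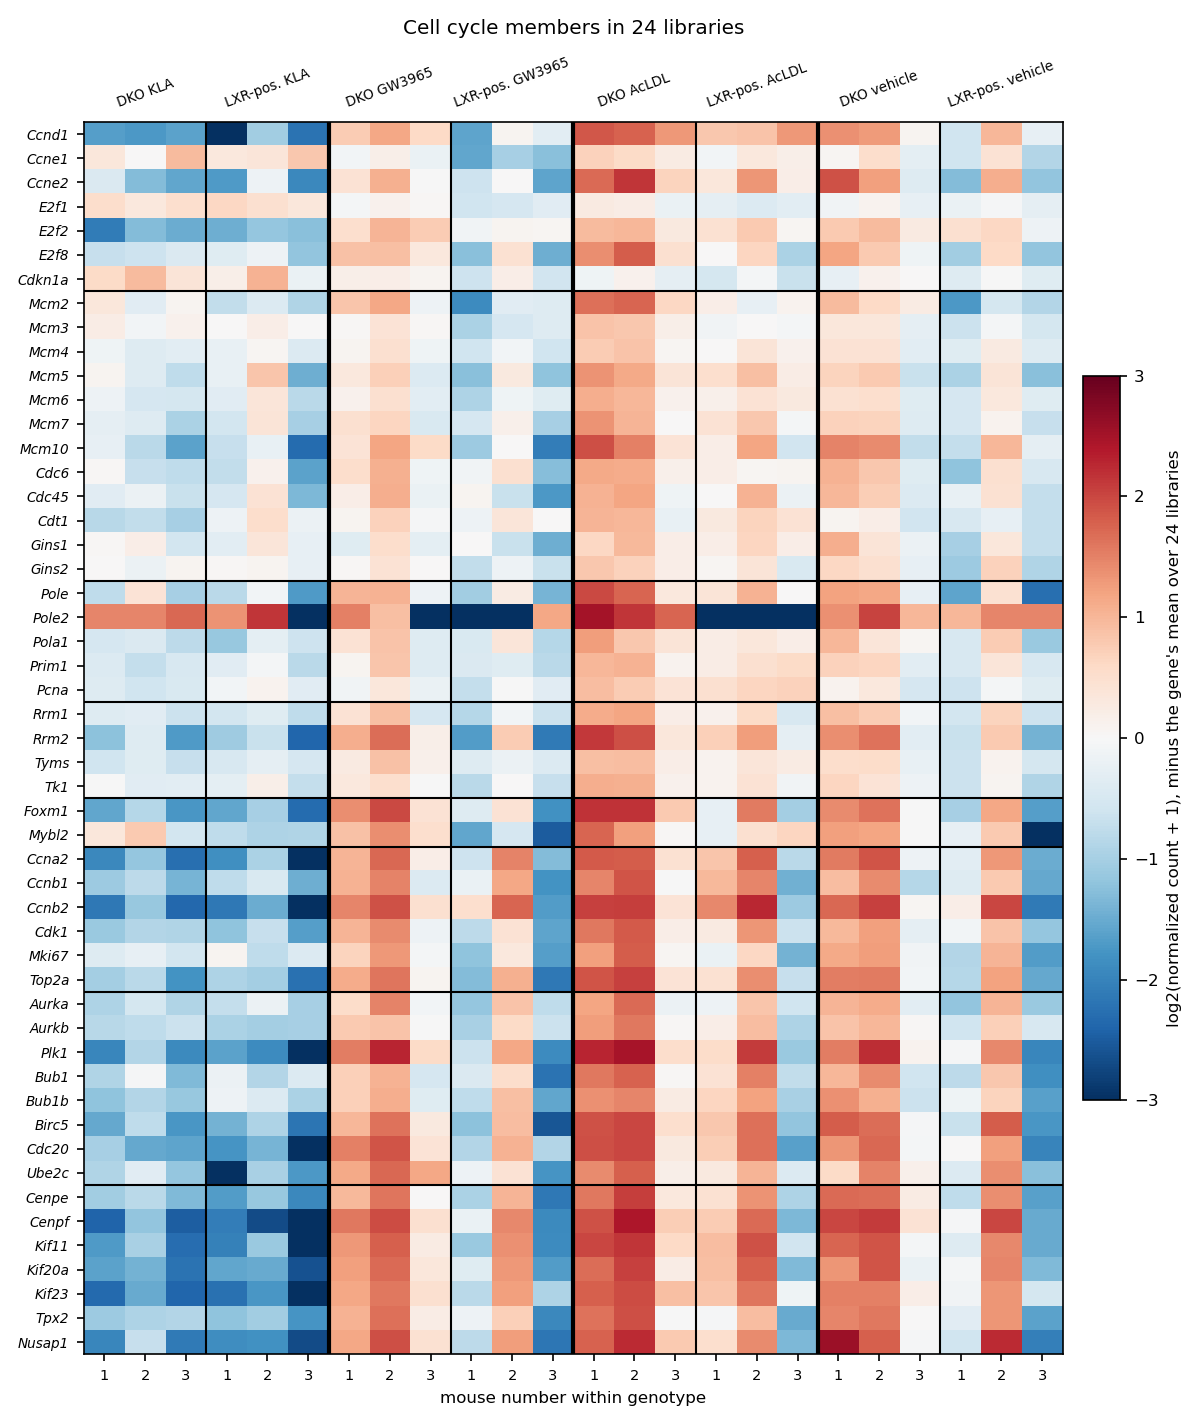
Heat map of 51 members (rows, grouped by role) in 24 libraries (columns, mice 1 to 3 of each group), coloured by log2(normalized count + 1) minus the gene's mean over all libraries, with colours ending at -3 and 3. KLA columns are low for most mitotic genes in both genotypes, mouse 3 is the lowest of its group for most members in all 8 groups, and Pole2 is at 0 in 7 libraries.

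KLA was set against vehicle to ask how TLR4 activation changes these genes with and without LXRs. All 7 kinetochore, spindle and cytokinesis genes fell with KLA in DKO cells and 3 of 7 in LXR-positive cells, Ccnd1 and E2f2 fell in both, and E2f1 rose in both. Licensing and helicase genes had a median nearer 0. The test was limma on log2(normalized count + 1) with 4 group means, adjusted by Benjamini-Hochberg over all 15957 genes tested, and a gene is called at an adjusted p under 0.05. All 51 members passed the filter on low values. In DKO cells 22 of 51 members were called lower and 1 higher, where 11.1% of all genes were called lower and 14.0% higher. In LXR-positive cells 5 were called lower and 1 higher, where 12.4% of all genes were called lower and 16.2% higher. Both are smaller shares than among all genes, so without a block these calls do not set the members apart there. With the mouse as a block, which uses that the same mouse gave both libraries, 36 members were called lower and 2 higher in DKO (12.0% and 14.6% of all genes), and 16 lower and 3 higher in LXR-positive cells (13.5% and 16.5%). The median log2 fold change over the members was -1.36 in DKO and -0.39 in LXR-positive cells, and over all genes it was -0.00379 and -0.00276. In DKO, KLA and vehicle libraries did not overlap for 30 members lower with KLA (21.5% of all genes) and 44 members were lower in each of the 3 mice (30.8%). In LXR-positive cells 6 members were lower without overlap, 11.8% of the members and a smaller share than the 18.0% of all genes. There 22 were lower in each mouse, 43.1% of the members against 26.9% of all genes. Single libraries moved these counts. Without vehicle mouse 1, vehicle mouse 2, KLA mouse 1 or KLA mouse 3, the DKO count of 23 calls was 8, 7, 8 or 7. Without vehicle mouse 3 the LXR-positive count of 6 was 16.

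**Figure D2:**
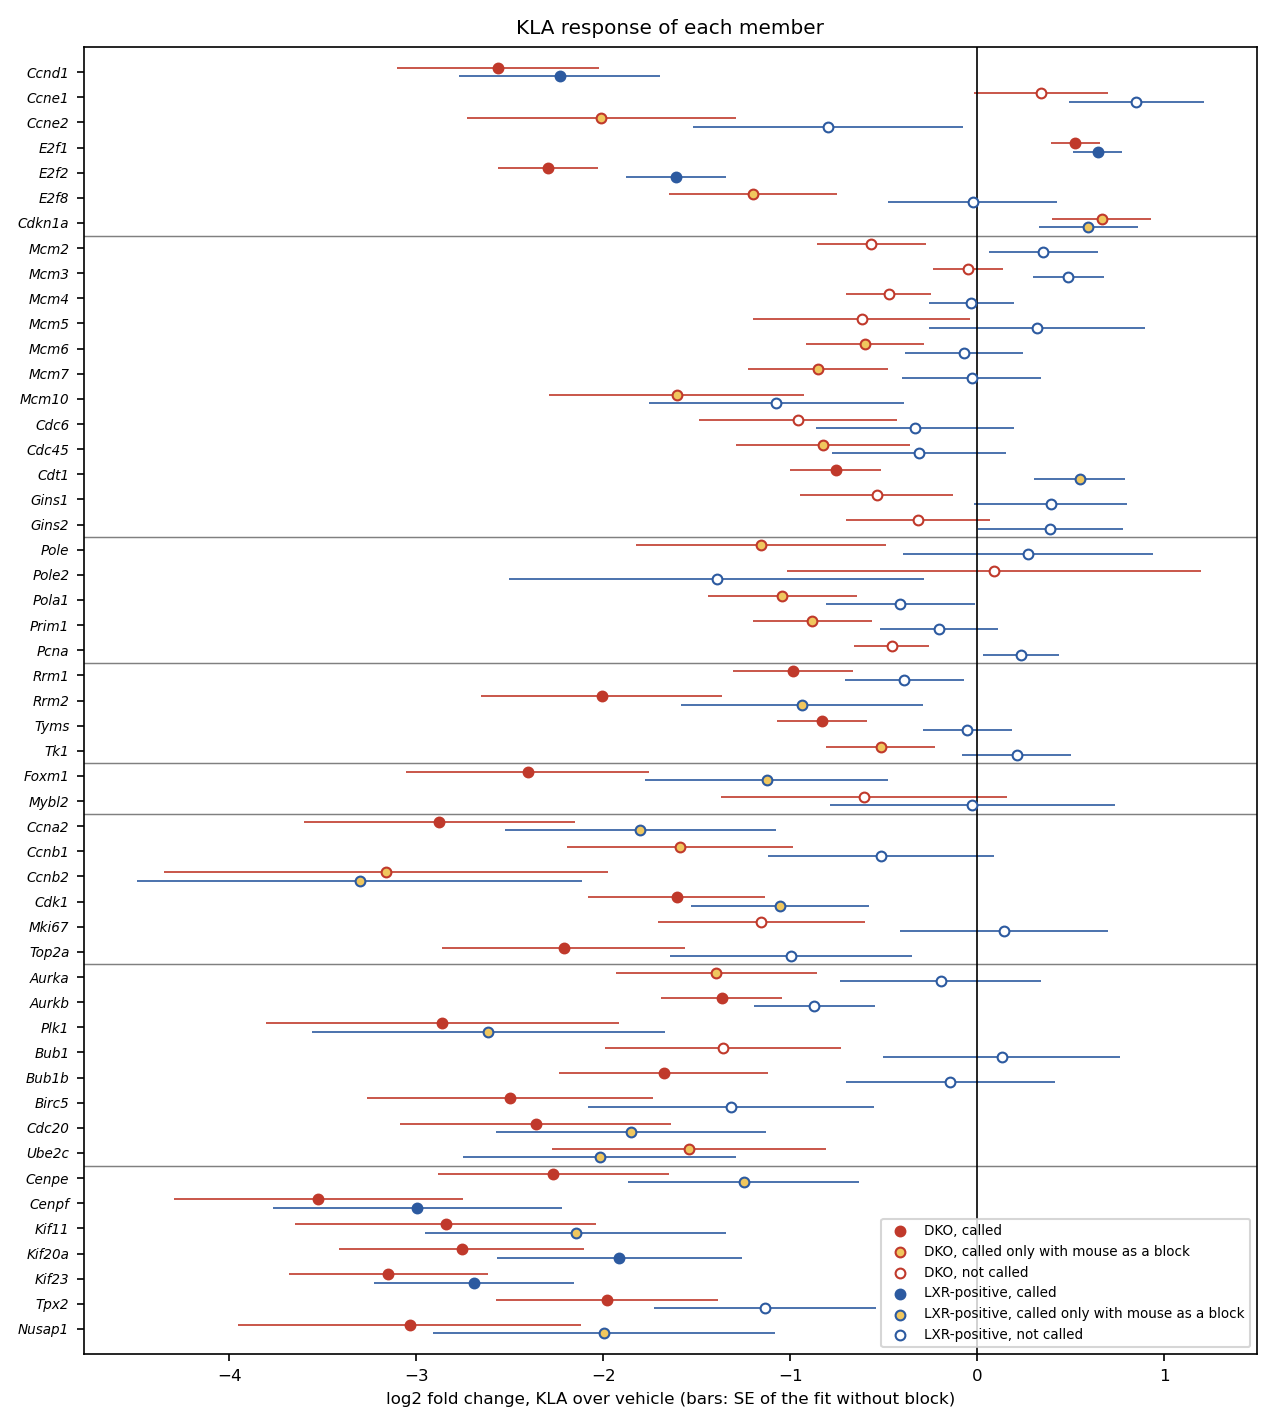
Log2 fold change of each member with KLA over vehicle (x axis), with its SE, in DKO (red) and LXR-positive cells (blue), with genes grouped by role. Filled points were called, yellow points were called only with the mouse as a block, and open points were not called; the kinetochore, spindle and cytokinesis genes at the bottom lie farthest below 0 in both genotypes.

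Genes of kinetochore, spindle and cytokinesis had the lowest medians of the 8 roles. All 7 were called in DKO, with a median log2 fold change of -2.84, and 3 of 7 in LXR-positive cells, with a median of -1.99, or 6 of 7 with the mouse as a block. Kif23 encodes a kinesin of the central spindle that is needed for cytokinesis. It had 64.0, 114 and 61.8 normalized counts in DKO KLA libraries of mice 1, 2 and 3, against 939, 932 and 372 in DKO vehicle libraries. LXR-positive KLA libraries had 67.8, 95.8 and 30.4, against 305, 819 and 225 in LXR-positive vehicle libraries. Every KLA library lay below every vehicle library of its genotype. The log2 fold change was -3.15 ± 0.53 (SE) in DKO (adjusted p = 0.00104) and -2.69 ± 0.53 in LXR-positive cells (adjusted p = 0.00259), and both calls held without any 1 library.

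Cenpf, a large protein of the outer kinetochore, had 56.9, 133 and 53.9 in DKO KLA libraries, against 1213, 1299 and 409 in DKO vehicle libraries. LXR-positive libraries had 71.8, 46.4 and 21.3 with KLA, against 295, 1220.3 and 106 with vehicle. Groups did not overlap in either genotype. Its log2 fold change was -3.52 ± 0.77 in DKO (adjusted p = 0.00548) and -2.99 ± 0.77 in LXR-positive cells (adjusted p = 0.0121, and 0.0507 without KLA mouse 3). Kif20a, another kinesin of cytokinesis, fell by 2.76 ± 0.65 in DKO (adjusted p = 0.00898) and by 1.92 ± 0.65 in LXR-positive cells on the log2 scale. The LXR-positive call (adjusted p = 0.0458) was lost without any 1 of 5 libraries, all but vehicle mouse 3, with an adjusted p of up to 0.172. Kif11, the motor that separates spindle poles, and Nusap1, a microtubule-binding protein, fell by 2.84 ± 0.80 and 3.04 ± 0.92 in DKO. In LXR-positive cells Kif11 differed by -2.15 ± 0.80 (adjusted p = 0.0655, and 0.000492 with the mouse as a block) and Nusap1 by -1.99 ± 0.92 (0.127, and 0.0472 with the block). Cenpe, a kinetochore motor, was called in DKO (-2.27 ± 0.62) and in LXR-positive cells with the block alone (adjusted p = 0.0398). Tpx2, which activates Aurora A on the spindle, fell by 1.98 ± 0.60 in DKO and was not called in LXR-positive cells (-1.13 ± 0.60, adjusted p = 0.179, or 0.0811 with the block). The DKO calls of Cenpe, Kif11, Tpx2 and Nusap1 were each lost without 1 library in 4 or 5 of 6 cases, vehicle mice 1 and 2 and KLA mice 1 and 3 among them, with adjusted p of up to 0.0723, 0.0825, 0.104 and 0.119.

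Mitotic kinases, the spindle checkpoint and APC/C genes had medians below 0 as well. In DKO 5 of 8 were called lower (7 with the mouse as a block) and in LXR-positive cells 0 of 8 (3 with the block), with median log2 fold changes of -1.61 and -1.09. Of the 8, 4 in LXR-positive cells had an unadjusted p under 0.05. The share of all genes at that threshold is not given here or below. For KLA it is at least 25.2% in DKO and 28.6% in LXR-positive cells, the shares called in either direction after adjustment. Plk1, the kinase that drives entry into and exit from mitosis, had 18.5, 39.8 and 19.0 in DKO KLA libraries, against 218, 345 and 79.3 in DKO vehicle libraries. LXR-positive libraries had 23.5, 19.5 and 1.52 with KLA, against 72.6, 203 and 18.3 with vehicle. In DKO the groups did not overlap, while in LXR-positive cells vehicle mouse 3 lay below KLA mice 1 and 2. Plk1 fell by 2.86 ± 0.94 in DKO (adjusted p = 0.0439) and it differed in LXR-positive cells by -2.62 ± 0.94 (adjusted p = 0.0572, and 0.00155 with the block). Birc5, or survivin, a partner of Aurora B, fell by 2.5 ± 0.76 in DKO (adjusted p = 0.0318). Cdc20, the APC/C activator, fell by 2.36 ± 0.72 in DKO (adjusted p = 0.0324), and in LXR-positive cells it was called with the block (-1.85 ± 0.72, adjusted p = 0.00767). Aurkb, the kinase of chromosome alignment and cytokinesis, fell by 1.37 ± 0.32 in DKO (adjusted p = 0.00884), a call that held without any 1 library. Bub1b, of the spindle checkpoint, fell by 1.68 ± 0.56 in DKO, while Bub1 was not called in DKO (-1.36 ± 0.63) or in LXR-positive cells (0.13 ± 0.63). Calls of Plk1, Bub1b, Birc5 and Cdc20 in DKO were lost without 1 library in 4 or 5 of 6 cases, among them vehicle mouse 1 and vehicle mouse 2, with adjusted p of up to 0.145 for Plk1, 0.174 for Bub1b, 0.116 for Birc5 and 0.115 for Cdc20.

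Among S to M cyclins, Cdk1 and proliferation markers, 3 of 6 were called lower in DKO (5 with the mouse as a block) and 0 of 6 in LXR-positive cells (3 with the block, and 3 at an unadjusted p under 0.05). Their median log2 fold changes were -1.91 and -1.02. Ccna2, cyclin A of S phase and early mitosis, had 66.1, 113 and 52.0 in DKO KLA libraries, against 748, 936 and 228 in DKO vehicle libraries. LXR-positive libraries had 70.5, 130.3 and 28.8 with KLA, against 205, 630.4 and 90.4 with vehicle. Within each of the 6 mice the KLA library was lower, but KLA mouse 2 lay above vehicle mouse 3 in LXR-positive cells. The fall in DKO was 2.88 ± 0.73 (adjusted p = 0.0125), lost without vehicle mouse 2 or KLA mouse 3 (up to 0.0533). The difference in LXR-positive cells was -1.80 ± 0.73 (adjusted p = 0.0845, and 0.00136 with the block). Top2a, the topoisomerase that untangles chromosomes, fell by 2.21 ± 0.65 in DKO (adjusted p = 0.0265) and differed by -1.0 ± 0.65 in LXR-positive cells (0.281, or 0.0623 with the block). Cdk1, the kinase that starts mitosis, fell by 1.61 ± 0.47 in DKO (adjusted p = 0.0271), and in LXR-positive cells it was called with the block (-1.05 ± 0.47, adjusted p = 0.0348). The DKO calls of Top2a and Cdk1 were each lost without vehicle mouse 1, vehicle mouse 2, KLA mouse 1 or KLA mouse 3, and that of Cdk1 also without KLA mouse 2, with adjusted p of up to 0.0977 and 0.104. Cyclin B genes Ccnb1 and Ccnb2 were not called without the block. In DKO they differed by -1.59 ± 0.60 and -3.16 ± 1.19, and with the block both were called (0.0116 and 0.000627). Ccnb2 had 15.7, 25.5 and 0 in LXR-positive KLA libraries, against 83.3, 297 and 15.9 in LXR-positive vehicle libraries, and it was called with the block (adjusted p = 0.00044).

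Mki67 departed from its neighbours. It had 2903, 3234 and 2614 in DKO KLA libraries, against 8393, 9126 and 3535 in DKO vehicle libraries, and every DKO mouse was lower with KLA. LXR-positive KLA libraries had 3996, 2239 and 2878, against 2072, 7774 and 1184 with vehicle, so mouse 2 was lower and mice 1 and 3 were higher with KLA. It was not called in DKO (-1.15 ± 0.55, adjusted p = 0.155, or 0.136 with the block) or in LXR-positive cells (0.14 ± 0.55, adjusted p = 0.872). The mitotic transcription factor Foxm1 fell by 2.40 ± 0.65 in DKO (adjusted p = 0.0178, and up to 0.0698 without 1 of 4 libraries) and was called in LXR-positive cells with the block (-1.13 ± 0.65, adjusted p = 0.0402). Mybl2, which encodes B-Myb, was not called in DKO (-0.61 ± 0.76) or LXR-positive cells (-0.03 ± 0.76).

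Upstream, the G1 genes moved in opposite directions. Ccnd1, cyclin D1, had 67.6, 63.8 and 69.8 in DKO KLA libraries, against 553, 516 and 225 in DKO vehicle libraries. LXR-positive libraries had 20.9, 103 and 45.5 with KLA, against 140.4, 429 and 181 with vehicle. No KLA library reached a vehicle library of its genotype. It fell by 2.56 ± 0.54 in DKO (adjusted p = 0.00431) and by 2.23 ± 0.54 in LXR-positive cells (adjusted p = 0.00845). E2f2, an activating E2F factor, had 29.2, 51.8 and 45.3 in DKO KLA libraries, against 222, 251 and 155 with vehicle, and 45.7, 56.9 and 53.1 in LXR-positive KLA libraries, against 178, 197 and 116 with vehicle. It fell by 2.30 ± 0.27 in DKO (adjusted p = 6.76e-05) and by 1.61 ± 0.27 in LXR-positive cells (adjusted p = 0.000812). Both genes kept their calls in both genotypes without any 1 library.

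E2f1, the activator most tied to entry into S phase, rose instead. It had 332, 290.3 and 327 in DKO KLA libraries, against 217, 249 and 194 in DKO vehicle libraries, and 356, 322 and 293 in LXR-positive KLA libraries, against 201, 226 and 193 with vehicle. KLA and vehicle did not overlap in either genotype. The rise was 0.53 ± 0.13 in DKO (adjusted p = 0.0125, and 0.0505 without vehicle mouse 3) and 0.64 ± 0.13 in LXR-positive cells (adjusted p = 0.00332). Cdkn1a, which encodes p21, an inhibitor of cyclin-dependent kinases, was higher with KLA in all 6 mice. It had 750.3, 967 and 652 in DKO KLA libraries, against 425, 548 and 508 with vehicle, and 569, 1041 and 436 in LXR-positive KLA libraries, against 384, 499.6 and 389 with vehicle. Groups did not overlap in DKO and overlapped in LXR-positive cells. Its log2 difference was 0.67 ± 0.27 in DKO and 0.60 ± 0.27 in LXR-positive cells, called with the mouse as a block (adjusted p = 0.0241 and 0.0338) and not without it (0.0905 and 0.118). Cyclin E genes were not called without the block: Ccne1 differed by 0.34 ± 0.36 in DKO and 0.85 ± 0.36 in LXR-positive cells (adjusted p = 0.098), and Ccne2 by -2.01 ± 0.72 (0.0602, and 0.00156 with the block) and -0.80 ± 0.72. E2f8, a repressor of the family, differed by -1.20 ± 0.45 in DKO (0.0727, and 0.0265 with the block) and by -0.02 ± 0.45 in LXR-positive cells.

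Licensing and helicase genes, the carriers of most E2F letters, had medians near those of all genes in LXR-positive cells and below them in DKO. The median log2 fold change was -0.61 in DKO and 0.14 in LXR-positive cells. In DKO all 12 were below 0, 1 was called and 5 with the mouse as a block. In LXR-positive cells 6 were below 0, and 0 were called without and 1, higher, with the block; 2 had an unadjusted p under 0.05. Mcm3, a subunit of the helicase ring, had 635, 509 and 596 in DKO KLA libraries, against 691, 682 and 453 with vehicle. LXR-positive libraries had 544, 623 and 545 with KLA, against 344, 521 and 374 with vehicle. DKO groups overlapped and LXR-positive groups did not, but Mcm3 was not called (-0.05 ± 0.19 in DKO and 0.49 ± 0.19 in LXR-positive cells, adjusted p = 0.878 and 0.0744, or 0.0529 in LXR-positive cells with the block). Mcm5 differed by -0.62 ± 0.58 in DKO and 0.32 ± 0.58 in LXR-positive cells. Mcm6 and Mcm7 in DKO were called with the block (-0.60 ± 0.32, adjusted p = 0.0427, and -0.85 ± 0.37, 0.00456), as were Mcm10 (-1.61 ± 0.68) and Cdc45 (-0.83 ± 0.47). Mcm10 starts the loaded helicase and Cdc45 is part of it.

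Cdt1, a licensing factor that loads the helicase, was lower with KLA in every DKO mouse and higher in every LXR-positive mouse. It had 91.7, 98.0 and 81.4 in DKO KLA libraries, against 175, 188 and 109 in DKO vehicle libraries. LXR-positive libraries had 147, 237 and 144 with KLA, against 117, 138 and 99.0 with vehicle. In DKO every KLA library was below every vehicle library, and in LXR-positive cells every KLA library was above. It fell by 0.76 ± 0.24 in DKO (adjusted p = 0.0394, not held without vehicle mouse 1 or 2 or any KLA mouse, up to 0.143), and in LXR-positive cells it rose by 0.55 ± 0.24 with the block (adjusted p = 0.0405) and not without it (0.113).

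Polymerase and nucleotide genes lay between. No polymerase, primase or clamp gene was called without the block, and 3 of 5 in DKO and 0 of 5 in LXR-positive cells had an unadjusted p under 0.05. The clamp Pcna had 1607, 1406 and 1541 in DKO KLA libraries, against 2275, 2643 and 1502 with vehicle, and 1988, 2272 and 1665 in LXR-positive KLA libraries, against 1372, 2042 and 1651 with vehicle. Both pairs of groups overlapped. The differences were -0.46 ± 0.20 in DKO (adjusted p = 0.125) and 0.23 ± 0.20 in LXR-positive cells (0.424). With the block Pole (catalytic subunit of polymerase epsilon), Pola1 (of polymerase alpha) and Prim1 (primase) were called lower in DKO, by 1.15 ± 0.67, 1.04 ± 0.40 and 0.88 ± 0.32. Of the nucleotide genes 3 of 4 fell in DKO: Rrm2 and Rrm1, the subunits of ribonucleotide reductase, by 2.01 ± 0.65 and 0.98 ± 0.32, and Tyms, thymidylate synthase, by 0.83 ± 0.24. Rrm2 had 55.5, 99.9 and 39.8 in DKO KLA libraries, against 347, 408 and 105 with vehicle, and 62.6, 82.4 and 24.3 in LXR-positive KLA libraries, against 82.1, 226 and 48.9 with vehicle. Groups were separate in DKO and overlapped in LXR-positive cells, where Rrm2 was called with the block (-0.94 ± 0.65, adjusted p = 0.0333). The 3 DKO calls were lost without 1 of 4 or 5 libraries, with adjusted p of up to 0.139 for Rrm2, 0.15 for Rrm1 and 0.0996 for Tyms. Thymidine kinase Tk1 was called in DKO with the block (-0.52 ± 0.29, adjusted p = 0.042).

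**Figure D3:**
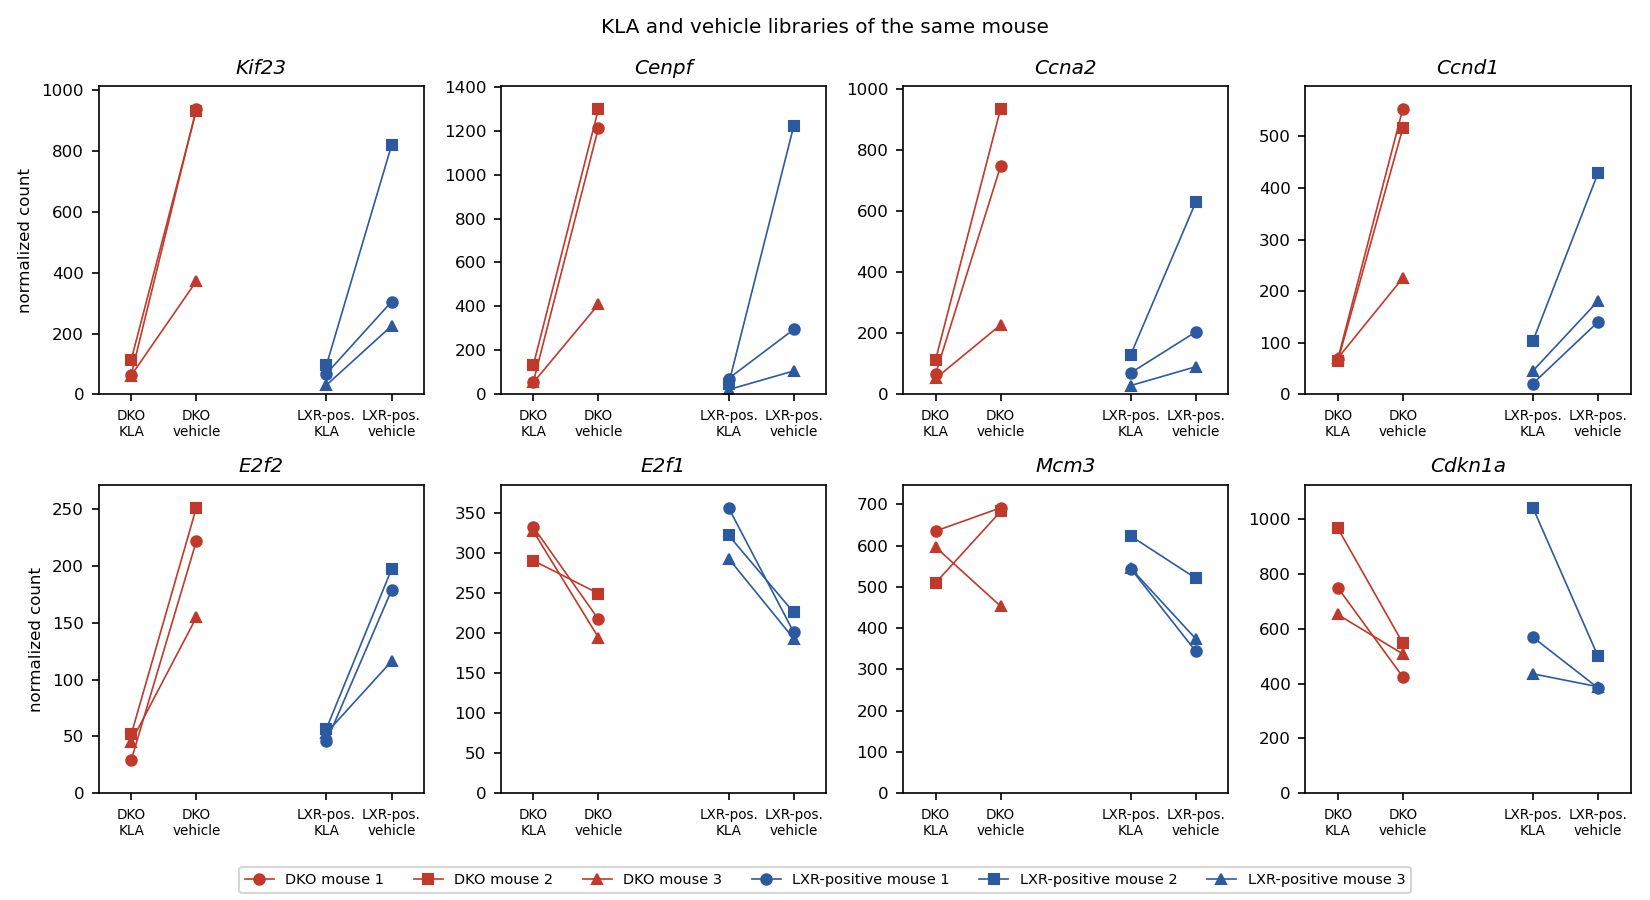
Normalized counts of 8 members in KLA and vehicle libraries, with a line joining the 2 libraries of each mouse, for DKO (red) and LXR-positive mice (blue). Kif23, Cenpf, Ccna2, Ccnd1 and E2f2 are lower with KLA in all 6 mice, E2f1 and Cdkn1a are higher in all 6, and Mcm3 is higher with KLA in the 3 LXR-positive mice and in DKO mouse 3.

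Related genes outside the members were counted as well. Of all genes 11.1% were called lower and 14.0% higher in DKO, and 12.4% lower and 16.2% higher in LXR-positive cells. With the mouse as a block 12.0% and 13.5% were called lower. Of 47 other mitosis genes, 27 were called lower and 1 higher with KLA in DKO, and 3 lower and 2 higher in LXR-positive cells, or 37 and 21 lower with the mouse as a block. Their median log2 fold changes were -1.79 and -1.04. Cenpa, the histone variant of centromeres, fell by 3.28 ± 0.37 in DKO (adjusted p = 5e-05) and fell by 3.25 ± 0.37 in LXR-positive cells (adjusted p = 4.94e-05). Kif22, a chromosome-bound kinesin, fell by 1.80 ± 0.34 and 1.18 ± 0.34. Of 38 other replication genes 2 were called in DKO and 1 in LXR-positive cells, all lower, with medians of -0.24 and 0.11. Claspin, encoded by Clspn, fell by 1.21 ± 0.40 in DKO and 1.19 ± 0.40 in LXR-positive cells, and Dbf4, the activator of the Cdc7 kinase, by 0.93 ± 0.16 in DKO. Of 59 tested replication-dependent histone genes 21 fell in DKO and 19 in LXR-positive cells, and none rose, with medians of -1.87 and -1.59. These are close gene families whose reads the counting could split. Of 18 other G1 regulators Ccnd3 rose by 1.35 ± 0.16 in DKO and 1.11 ± 0.16 in LXR-positive cells, opposite to Ccnd1, and the inhibitor Cdkn2c fell by 2.01 ± 0.35 and 1.41 ± 0.35. Myc fell by 1.72 ± 0.50 in DKO and differed by -1.42 ± 0.50 in LXR-positive cells (adjusted p = 0.0515, and 0.0388 with the block). Ccnd2 was not called (0.58 ± 0.69 in DKO and 1.17 ± 0.69 in LXR-positive cells). Of 20 p53 targets and checkpoint kinases 2 rose and 5 fell in DKO, and 2 rose and 6 fell in LXR-positive cells. Fas rose by 2.31 ± 0.21 and 1.69 ± 0.21, and Plk2 fell by 2.81 ± 0.29 and 2.35 ± 0.29.

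Markers of other cells moved with KLA as well, in a test that called 11.1% of all genes lower in DKO and 12.4% in LXR-positive cells. Of 12 tested granulocyte and precursor genes 6 were called lower in DKO and 9 in LXR-positive cells, and their summed level was 3246 to 7160 with KLA and 6251 to 8947 with vehicle in DKO, and 1966 to 2574 with KLA and 4194 to 4615 with vehicle in LXR-positive cells. Of 4 tested myeloid progenitor genes 1 was called lower in each genotype. The 6 listed genes summed to 214 to 349 with KLA and 321 to 480.1 with vehicle in DKO. In LXR-positive cells the sums were 159 to 174 with KLA and 228 to 262 with vehicle. Mean Sox4 was 15.0 with KLA and 116 with vehicle in DKO, and 17.0 and 87.0 in LXR-positive cells. Mean Kit was also lower with KLA in both. Cd34 was higher with KLA in DKO (99.7 against 64.4) and lower in LXR-positive cells (39.5 against 49.4). Myb was higher with KLA in LXR-positive cells (81.3 against 56.9) and lower in DKO (145 against 153). Summed macrophage markers were higher with KLA, at 323097 to 363247 against 210828 to 244156 with vehicle in DKO, and 403350 to 478467 against 263595 to 337393 with vehicle in LXR-positive cells. The mitochondrial share of counts was 8.76% to 12.6% with KLA and 14.0% to 16.6% with vehicle in DKO, without overlap, and 8.99% to 15.5% with KLA and 14.3% to 19.3% with vehicle in LXR-positive cells, with overlap. The part of these in the fall of the members was not tested.

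Whether the KLA response depended on LXRs was tested as the difference of the responses, DKO minus LXR-positive. Of the 51 members 47 were below 0, with a median of -0.70, but limma called 0, where 0.0689% of all genes were called, and edgeR and DESeq2 on the recovered reads also called 0. With the mouse as a block the count was also 0, where 0.125% of all genes were called. Without adjustment 4 members were under 0.05: Cdt1 (-1.31 ± 0.34, limma adjusted p = 0.648), Pcna (-0.69 ± 0.29), Tyms (-0.78 ± 0.34) and Mcm2 (-0.92 ± 0.42). The estimates for mitotic genes were wide, for example -0.46 ± 0.76 for Kif23, -0.53 ± 1.09 for Cenpf and -1.07 ± 1.03 for Ccna2. In the authors' deposited table for KLA 48 of 51 members were below 0 and 0 had an adjusted p under 0.05, and the smallest was 0.276. Levels with KLA were close in both genotypes. The members' summed share of all normalized counts was 0.0818% to 0.1% in DKO and 0.0738% to 0.103% in LXR-positive KLA libraries, and with vehicle it was 0.128% to 0.306% in DKO and 0.0691% to 0.232% in LXR-positive cells.

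GW3965 was set against vehicle to ask whether activating LXRs changes these genes. With limma no member was called in DKO or LXR-positive cells, where 0.00621% and 0.267% of all genes were called, and none was called with the mouse as a block, by edgeR or by DESeq2. At an unadjusted p under 0.05 there were 0 members in DKO and 4 in LXR-positive cells. The median log2 fold change of the members was -0.04 in DKO and -0.27 in LXR-positive cells, and 20 members were lower in all 3 LXR-positive mice (13.6% of all genes), against 3 in DKO (16.7%). Ccne1, cyclin E1, was the member with the smallest p in LXR-positive cells. It had 41.2, 49.5 and 38.0 normalized counts in DKO GW3965 libraries, against 45.5, 63.5 and 35.6 with vehicle, and 14.2, 21.4 and 17.7 in LXR-positive GW3965 libraries, against 28.6, 59.1 and 23.2 with vehicle. LXR-positive groups did not overlap, and the difference of -0.92 ± 0.34 did not pass (adjusted p = 0.686, or 0.344 with the block). In DKO it was -0.13 ± 0.34. The difference between genotypes in this response gave 0 called members, where 0.118% of all genes were called, with a median of 0.20. The medians over the members were -0.33, 0.05 and 0.27 in DKO mice 1, 2 and 3, so the DKO mice differed in sign. Medians in LXR-positive mice were -0.23, -0.36 and -0.17.

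AcLDL was set against vehicle to ask how cholesterol loading changes these genes. Because the time of AcLDL is not given, any difference in time from the vehicle libraries cannot be told apart from loading. Most members were higher with AcLDL, but few of the differences passed the test. Of 51 members 50 were above 0 in DKO and 48 in LXR-positive cells, with median log2 fold changes of 0.40 and 0.53, where 50.1% and 49.7% of all genes were above 0. In DKO 41 members were higher in each of 3 mice and in LXR-positive cells 30, against 17.6% of all genes in each genotype. AcLDL and vehicle libraries did not overlap for 1 member in DKO, Pcna (5.83% of all genes), and for 4 higher members in LXR-positive cells (7.56%). In DKO 0 were called, where 0.125% of all genes were called, 3 had an unadjusted p under 0.05, and edgeR and DESeq2 called 0. In LXR-positive cells Pole2 alone was called, where 0.225% of all genes were called. With the mouse as a block DKO still had 0 calls (0.237% of all genes), and LXR-positive cells had 8 calls higher (0.537%) and 1 lower (1.00%). These 8 were Mcm5, Mcm7, Cdt1, Pole, Pcna, Rrm2, Bub1 and Kif11. Pcna, separate in both genotypes, had 4052, 3591 and 2806 in DKO AcLDL libraries, against 2275, 2643 and 1502 with vehicle, and 2955, 3321 and 3390.2 in LXR-positive AcLDL libraries, against 1372, 2042 and 1651 with vehicle. In both genotypes every AcLDL library lay above every vehicle library. The difference was 0.73 ± 0.21 in DKO (adjusted p = 0.556, or 0.0631 with the block) and 0.95 ± 0.21 in LXR-positive cells (0.117, or 0.0109 with the block). Cdt1 had 332, 330.4 and 141 in DKO AcLDL libraries, against 175, 188 and 109 with vehicle, and 201, 263 and 223 in LXR-positive AcLDL libraries, against 117, 138 and 99.0 with vehicle. Its groups overlapped in DKO and not in LXR-positive cells, with differences of 0.70 ± 0.31 and 0.96 ± 0.31 (0.138 and 0.0232 with the block). All 3 responses share their vehicle libraries.

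**Figure D4:**
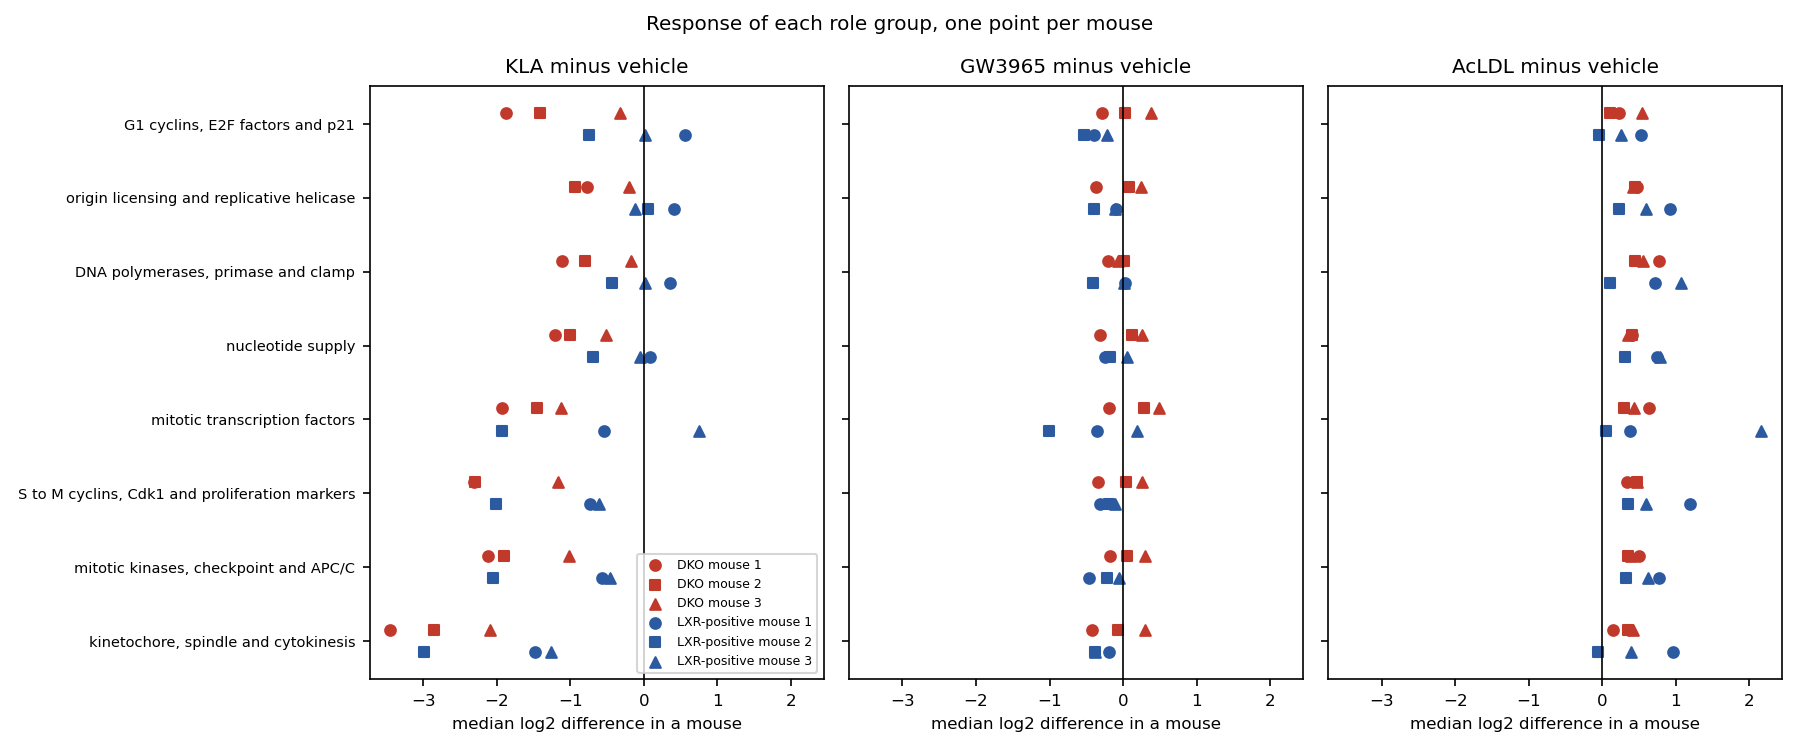
Median log2 difference of each role's members between treated and vehicle library of the same mouse (x axis, 1 point per mouse) for KLA, GW3965 and AcLDL, in DKO (red) and LXR-positive mice (blue). KLA points of kinetochore, spindle and cytokinesis genes lie at -3.45, -2.85 and -2.09 in DKO and at -1.48, -2.99 and -1.27 in LXR-positive mice, GW3965 points straddle 0, and AcLDL points lie right of 0 except for LXR-positive mouse 2 in 2 roles.

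Pole2, the second subunit of DNA polymerase epsilon, stood apart from all other members. It had 76.6, 59.2 and 45.1 normalized counts in DKO AcLDL libraries, against 34.3, 55.2 and 26.1 in DKO vehicle libraries. All 3 LXR-positive AcLDL libraries were listed at 0, against 26.2, 36.6 and 36.7 in LXR-positive vehicle libraries. A floor of 3 reads per library was set, a mean of 4.54 normalized counts in these libraries. With it the level is at least 7.3-fold lower than in LXR-positive vehicle and at least 13.3-fold lower than in DKO AcLDL libraries. These bounds hold only if the zeros are true counts. The call in LXR-positive cells (adjusted p = 4.81e-05) and that of the difference between responses (adjusted p = 0.00072, where 0.0250% of all genes were called) both held without any 1 library. Pole2 was also at 0 in 4 other libraries of 24: LXR-positive GW3965 mice 1 and 2, DKO GW3965 mouse 3 and LXR-positive KLA mouse 3. Every library above 0 held 20 to 100 reads, so values between 0 and 20 reads did not occur, and whether the zeros are failed estimates of the transcript-level counting was not tested. Fitted with all 24 libraries, which adds those to the spread, the call in LXR-positive cells was lost (adjusted p = 0.127) and so was the difference between responses (1.00). In the authors' deposited AcLDL table its difference was 7.54 ± 2.02 (log2, SE) with an adjusted p of 0.196. Pole, the catalytic subunit of the same enzyme, had 188, 298 and 146 in the same LXR-positive AcLDL libraries, against 47.6, 197 and 29.3 with vehicle.

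DKO and LXR-positive libraries were finally compared under each treatment. With vehicle all 51 members were higher in DKO, with a median log2 difference of 0.87, where 51.3% of all genes were above 0. With limma 0 were called, where 0.242% of all genes were called higher, and 5 had an unadjusted p under 0.05. DESeq2 called 1 and edgeR 0. Mcm2, a helicase subunit, had 549, 431 and 334 in DKO vehicle libraries, against 85.7, 197 and 153 in LXR-positive vehicle libraries. Groups did not overlap, and the difference was 1.64 ± 0.45 (adjusted p = 0.198). For Top2a it was 1.40 ± 0.84 and for Mki67 1.28 ± 0.68, with overlapping groups. With GW3965 3 members were called higher in DKO, where 4.20% of all genes were: E2f1 (0.51 ± 0.13, adjusted p = 0.0351), Mcm3 (0.78 ± 0.22, 0.0432) and Ccne1 (1.23 ± 0.34, 0.045). A count of 3 is near the share of all genes and does not set the members apart. Mcm3 had 558, 724 and 556 in DKO GW3965 libraries, against 279, 381 and 413 in LXR-positive GW3965 libraries. E2f1 and Mcm3 lost their calls without any 1 GW3965 library but LXR-positive mouse 3, and Ccne1 without any 1 of the 6, with adjusted p of up to 0.125, 0.152 and 0.146. Without LXR-positive mouse 1, DKO mouse 1 or DKO mouse 2 the count of 3 was 0, and without DKO mouse 3 it was 1. In all, 51 members were above 0 with a median of 1.13, and 11 did not overlap (14.5% of all genes). With vehicle 1 member did not overlap (7.58% of all genes) and with AcLDL 5 (15.0%), both smaller shares than among all genes. Outside the members, Myc and Ccnd2 were called higher in DKO with GW3965 (2.81 ± 0.72 and 2.47 ± 0.64, adjusted p = 0.0337 and 0.0359).

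With AcLDL all 51 members were again above 0, with a median of 0.77, and Mcm2 and Pole2 were called, where 3.76% of all genes were called higher. That count is near the share of all genes and does not set the members apart. Mcm2 had 889, 957 and 435 in DKO AcLDL libraries, against 327, 239 and 302 in LXR-positive AcLDL libraries, a difference of 1.32 ± 0.34 (adjusted p = 0.0345). The count of 2 was 1 without any single AcLDL library but DKO mouse 3, and 4 without DKO mouse 3. With KLA, 33 of 51 were above 0 and the median was 0.16. Of the members 1 was called, a smaller share than the 3.87% of all genes called lower: Cdt1, lower in DKO (-0.92 ± 0.24, adjusted p = 0.0445). That call was lost without any 1 of 5 KLA libraries, all but LXR-positive mouse 1, with adjusted p of up to 0.125. Granulocyte and precursor markers were also higher in DKO, with summed levels of 6251 to 8947 in DKO and 4194 to 4615 in LXR-positive vehicle libraries, as were myeloid progenitor markers (321 to 480.1 and 228 to 262). Summed macrophage markers were lower in DKO without overlap under every treatment, for example at 210828 to 244156 in DKO and 263595 to 337393 in LXR-positive vehicle libraries. The mitochondrial share was lower in DKO without overlap with GW3965 (12.6% to 14.7% in DKO and 14.9% to 19.4% in LXR-positive libraries) and with AcLDL (14.2% to 14.7% and 16.4% to 20.3%). The part of these in the higher levels of the members was not tested.

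**Figure D5:**
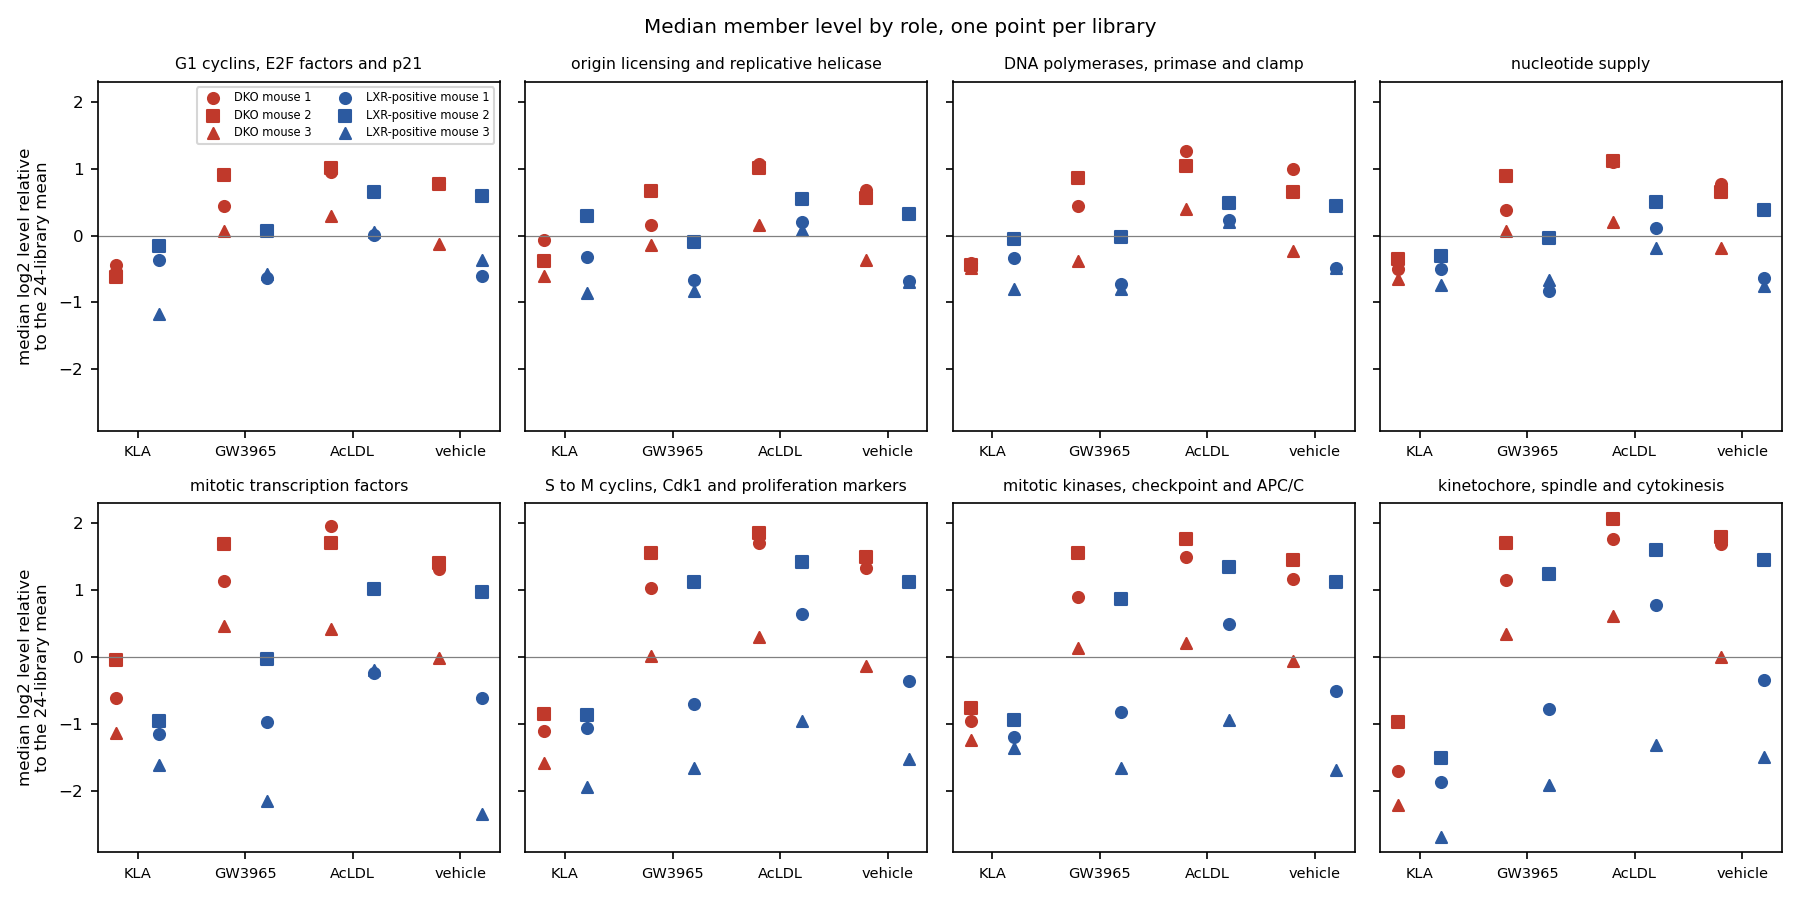
Median level of each role's members in every library, as log2 relative to each gene's mean over 24 libraries (y axis), for KLA, GW3965, AcLDL and vehicle, with DKO (red) left of LXR-positive mice (blue) and a shape per mouse. In the mitotic roles KLA points of all 6 mice lie below 0, and in the other treatments mouse 2 lies high and mouse 3 low in most panels.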

How the data were processed

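RNA from macrophages of 6 mice under 4 treatments was sequenced as single-end 50-base reads from stranded total RNA libraries, per the labels' protocols. Kallisto, DESeq2 and GRCm38 are named in the submitters' processing notes; these notes state no version, annotation or strand setting. The authors deposited normalized counts, a signal in which reads are divided by 1 size factor per library: 100% of values came out as whole reads within 0.01 read. They also deposited, per the file headers, a log2 fold change, a Wald score and p-values for the difference between genotypes in each response. Vehicle libraries are shared by the 3 tables.

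Here, genes reaching 10 in at least 3 of the 12 libraries of a table were fitted with limma 3.58.1 (R 4.3.3, trended variance) on log2(normalized count + 1), so fold changes of low genes are understated. The vehicle genotype difference was fitted with the GW3965 libraries. There were 13 comparisons. The design gives 4 treatments for each mouse, so numbers pair libraries within a genotype; deviations of 18 such pairs over 13166 genes correlated with a median r of 0.19 (0.0107 to 0.484, 17 of 18 over 0.1). Alternatives included edgeR 4.0.16 and DESeq2 1.42.0 on recovered reads. Only limma on the KLA response in LXR-positive cells, without and with the mouse as a block, was tested on simulated data. That simulation held no differences between mice. Members, lists and the rule for named genes (at most 3 called members per role by size of change in full, 14 set members always, and related genes by smallest p) were chosen with earlier results of these data known. Low counts, and the shallower LXR-positive libraries, are measured with less precision.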

Additional observations from a re-analysis of the deposited data

Results flagged for a closer look

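For 7 responses, among 51 members and 3 treatments, every DKO mouse moved one way and every LXR-positive mouse the other. How many of all genes did so was not counted, so this count does not set the members apart. The difference of responses (DKO minus LXR-positive, log2) was -1.31 for Cdt1 with KLA (limma adjusted p = 0.648), -0.93 for Gins1 with KLA (0.879) and -0.73 for Tk1 with KLA (0.877). It was 0.43 for E2f1 with GW3965 and 0.62 for Cdk1 with GW3965 (0.992 for both), and 0.34 for E2f1 with AcLDL (1). None of these 6 passed the test. For Pole2 with AcLDL it was 5.74 (adjusted p = 0.00072), with per-mouse changes of 1.13, 0.1 and 0.76 in DKO and -4.76, -5.23 and -5.23 in LXR-positive mice. All 3 LXR-positive AcLDL values of Pole2 are listed at 0, so the size of these changes and of the 5.74 is set by the added 1 and is no bound. Gins1 changed by -1.06, -0.2 and -0.36 with KLA in DKO mice and by 0.69, 0.04 and 0.45 in LXR-positive mice.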

How the results depend on the processing

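No member called in the main fit reversed its direction under an alternative. Medians and members that were not called were not checked for a reversal. Counts below are members called, out of 51. With the mouse as a replicate block, KLA gave 38 in DKO and 19 in LXR-positive cells, against 23 and 6 without it, and AcLDL 9 in LXR-positive cells, against 1. The replicate number as a block treats equal numbers of the 2 genotypes as pairs, although they come from different mice. Vehicle deviations of the genotypes correlated at -0.214, -0.048 and 0.275 for numbers 1, 2 and 3. With that block the genotype difference gave 34 with GW3965 (3 without) and 12 with AcLDL (2 without). All were higher in DKO, where 7.22% and 4.39% of all genes were. These counts rest on a pairing that the design does not give. With the mouse as a block and all 24 libraries, KLA gave 43 in DKO and 26 in LXR-positive cells. It gave 1 for the difference of responses (0 otherwise). In that fit AcLDL gave 1 in DKO, 5 in LXR-positive cells and 0 for the difference of responses (1 otherwise). All 24 libraries without a block gave 6 (GW3965) and 4 (AcLDL) for the genotype difference and 0 for the AcLDL difference of responses. With edgeR, KLA gave 12 in LXR-positive cells and the genotype difference with GW3965 1. DESeq2 gave 17, 7, and 1 with vehicle (0 otherwise). The genotype difference gave 0 with KLA and with GW3965 without a filter, 0 with KLA from only the groups compared, and 0 with GW3965 from thinned reads. Without replicate 3 of every group, chosen after seeing the data, KLA gave 12 in LXR-positive cells, GW3965 1 in LXR-positive cells, the genotype difference with KLA 0 and the AcLDL difference of responses 0. Leaving out each library in turn gave 7 to 32 for KLA in DKO and 5 to 16 in LXR-positive cells, and for the genotype difference 0 to 1 with KLA, 0 to 3 with GW3965 and 1 to 4 with AcLDL. The cause of these changes was not tested. The median SD between LXR-positive vehicle mice, 0.985 on the log2 scale, limits what 3 mice per group can show.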
